A study of Rattus norvegicus with 15 samples.

Results

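The proteasome genes of rat liver are described here across 15 RNA-sequencing libraries. They were chosen by symbol: every gene whose symbol starts with Psma, Psmb, Psmc, Psmd or Psme and a number was taken, apart from Psmb8 and Psmb9. The rule found 42 of the 21576 genes in the deposited table, and 40 of these had enough counts to be tested among 13163 genes. The members comprise 8 alpha-ring genes, 9 beta-ring genes, 6 ATPases of the regulatory particle's base, 3 other base subunits, 8 lid subunits, 3 base assembly chaperones and 4 activators. The remaining member, Psmc3ip, matches the rule by its letters alone: it encodes a meiotic recombination factor and no proteasome subunit.

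All libraries came from livers of male Sprague-Dawley rats, an outbred laboratory stock, with 5 libraries in each of 3 groups. ZXD rats were put on a lipid-raising feed, and after 4 weeks were dosed orally for another 4 weeks with Zexie Decoction, a herbal preparation of Alisma and Atractylodes, at a daily 2.2 g per kg. HFD rats were put on that feed and were dosed with saline. CON rats ate normal chow. The feed held 2% cholesterol, 8.3% yolk, 7% lard, 16.7% sucrose, 0.3% sodium cholate, which is a bile salt, 0.2% propylthiouracil, which blocks thyroid hormone synthesis, and 66% base forage, so the ZXD and HFD groups share every component of it and fat cannot be told apart from the antithyroid agent. The labels give 10 rats per group and do not state which rats gave the libraries, so the p-values cover the spread among the libraries, and part of that spread may be technical.

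The proteasome is the protease that degrades ubiquitin-tagged proteins. Its core particle is a barrel of outer rings of alpha subunits, which form the gate, and inner rings of beta subunits, among which Psmb5, Psmb6 and Psmb7 carry the catalytic sites. The regulatory particle caps the barrel: its base of ATPases unfolds substrates, and its lid removes ubiquitin. Interferon-gamma is known to induce alternative catalytic subunits, with Psmb8, Psmb9 and Psmb10 taking the places of Psmb5, Psmb6 and Psmb7, and also Psme1 and Psme2, the alpha and beta subunits of an activator ring that opens the gate without ubiquitin or ATP. Immune cells hold much of this alternative form, while hepatocytes normally hold mostly the constitutive one.

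Libraries held 12552449 to 14228052 counts. Values are CPM (read counts relative to library size) scaled with edgeR's TMM factors. These factors were 1.01 to 1.28 for ZXD and HFD libraries and 0.793 to 0.867 for CON libraries. Tests are edgeR's quasi-likelihood tests with Benjamini-Hochberg adjustment over all tested genes, and a gene is called at an adjusted p under 0.05. Hepatocyte markers stood at 88821 CPM in ZXD, 91316 CPM in HFD and 179993 CPM in CON, as group means of the sum over 9 genes, of which Alb, albumin, made up 33771 CPM in ZXD, 39380 CPM in HFD and 104282 CPM in CON. Of the 9 genes, 4 fell in ZXD versus CON (median log2 fold change -0.56) and 3 in HFD versus CON (median -0.34), and 0 rose. In bulk liver, fewer cells of a type and less RNA per cell cannot be told apart.

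Most proteasome genes differed little between the groups: 37 of 40 tested members in HFD versus CON, and 36 in ZXD versus CON, had a log2 fold change within 0.5 of 0. The most positive fold changes against CON were those of Psmb10, Psme2 and Psme1. By the test in HFD versus CON, 3 of 40 members (7.5%) rose and 0 fell, against 10.0% of all tested genes higher and 10.9% lower. In ZXD versus CON, 5 members (12.5%) rose and 3 (7.5%) fell, against 17.9% of all tested genes higher and 14.8% lower. In ZXD versus HFD, 0 members passed in either direction, as did 0% of all tested genes. The smallest edgeR adjusted p of a member was 0.261, and 2 members had an unadjusted p under 0.05. Limma voom and DESeq2 also called 0 members, while DESeq2 called 212 of 13163 tested genes higher and 130 lower. None of these shares exceeded the share of all genes called. The median log2 fold change of the members was 0.06 in HFD versus CON, 0.04 in ZXD versus CON and -0.04 in ZXD versus HFD, beside 0.02, 0.03 and 0.02 over all tested genes.

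The 31 constitutive subunits of the core and regulatory particles had log2 fold changes between -0.35 and 0.48 in HFD versus CON, between -0.41 and 0.37 in ZXD versus CON and between -0.29 and 0.30 in ZXD versus HFD. All of them lay within 0.5 of 0 in each comparison. For ZXD versus HFD, their 95% intervals reached down to -0.56, for Psmb6, and up to 0.59, for Psmd1, so differences of that size are within what these libraries allow. The summed level of all members apart from Psmb10, Psme1 and Psme2 was 2311 ± 164 CPM in ZXD, 2340 ± 186 CPM in HFD and 2348 ± 72.9 CPM in CON (SD, n = 5 each), and the 3 groups overlap.

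The choice of scale decides what is said of the whole set against CON. As a plain share of each library's counts, the 42 members held 0.291% ± 0.0360 in ZXD, 0.284% ± 0.0277 in HFD and 0.204% ± 0.00325 in CON (SD, n = 5 each), and no ZXD or HFD library fell as low as the CON range of 0.200% to 0.207%. With library totals as the scale in the edgeR test, 33 members (82.5%) were higher and 0 lower in HFD than in CON, against 40.9% of all tested genes higher and 3.84% lower. In ZXD versus CON on that scale, 28 members (70%) were higher and 0 lower, against 45.9% of all tested genes higher and 4.77% lower. The members' median moved to 0.48 in HFD versus CON and to 0.47 in ZXD versus CON, and the median of all tested genes moved with it to 0.44 and 0.46. Differences from CON described below are on the TMM scale.

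**Figure D1:**
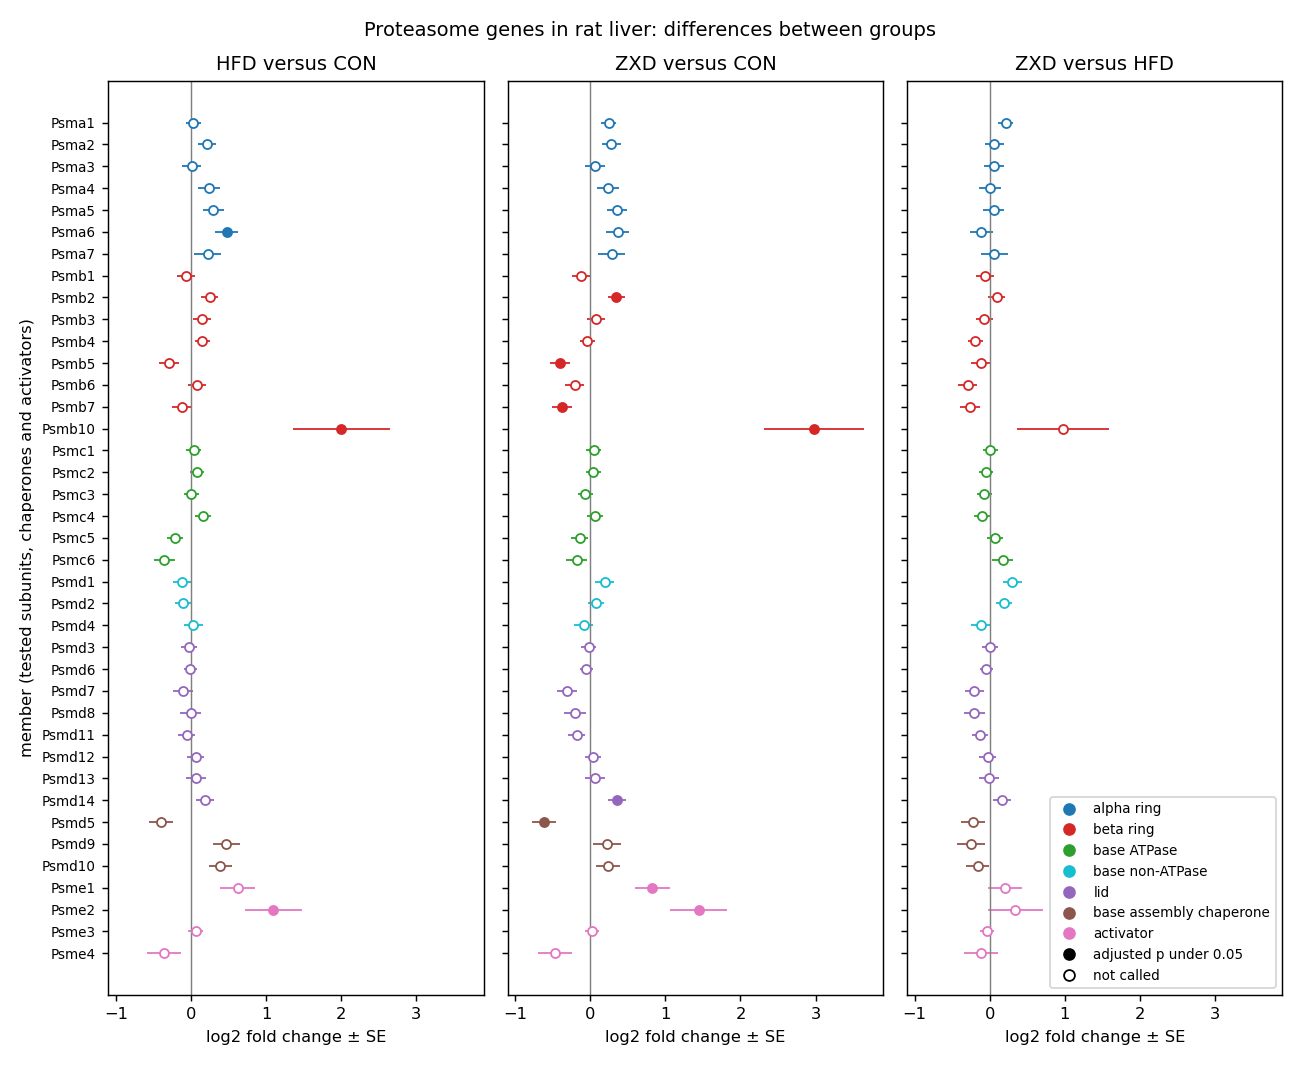
Log2 fold change (x axis, TMM scale) of each tested member except Psmc3ip, by subunit role (y axis). Bars show 1 SE from the edgeR quasi-likelihood fit and filled points mark called genes. The comparisons are HFD versus CON, ZXD versus CON and ZXD versus HFD. Psmb10, Psme2 and Psme1 stand to the right against CON, at 2.98, 1.44 and 0.83 in ZXD versus CON, while the 31 constitutive subunits stay within 0.5 of 0 and no member is called in ZXD versus HFD.

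Psmb10, the inducible beta subunit, was the member that differed most. It had 20.8, 9.51, 129, 101 and 136 CPM in the ZXD libraries, 50.1, 59.7, 36.3, 12.5 and 42.4 CPM in the HFD libraries, and 21.2, 6.24, 5.32, 8.42 and 8.94 CPM in the CON libraries. ZXD 3, ZXD 4 and ZXD 5 were several times above every CON library, whereas ZXD 1, ZXD 2 and HFD 4 lay within the CON range, so the groups overlap. CON 1 stood above the other CON libraries. Psmb10 rose by 2.98 on the log2 scale in ZXD versus CON (SE 0.67, edgeR adjusted p = 0.00519), with means of 79.2 ± 60.1 CPM in ZXD and 10.0 ± 6.41 CPM in CON (SD, n = 5 each). It rose by 2.00 in HFD versus CON (SE 0.65, edgeR adjusted p = 0.0412), with 40.2 ± 17.8 CPM in HFD. The HFD call was lost in 8 of the 15 fits that left out 1 library, namely CON 2 to CON 5 and all HFD libraries but HFD 4, and its edgeR, DESeq2 or limma adjusted p ranged from 0.00543 to 0.182 over 24 alternatives. The ZXD call held in all 24. ZXD versus HFD gave a log2 difference of 0.98 (95% interval -0.37 to 2.32, edgeR adjusted p = 0.424), which did not pass.

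Psme1 and Psme2, whose products form the interferon-inducible activator ring, followed a similar order of libraries. Psme2 had 36.3, 28.4, 107, 114 and 118 CPM in ZXD, 62.8, 90.0, 63.6, 29.3 and 72.3 CPM in HFD, and 36.4, 27.1, 30.0, 27.5 and 27.6 CPM in CON. Again ZXD 1, ZXD 2 and HFD 4 were at CON levels and ZXD 3, ZXD 4 and ZXD 5 were the highest, so the groups overlap. Psme2 rose by 1.44 on the log2 scale in ZXD versus CON (SE 0.38, edgeR adjusted p = 0.0109) and by 1.10 in HFD versus CON (SE 0.37, edgeR adjusted p = 0.0496). The HFD call was kept in 4 of the 15 fits without 1 library, those without HFD 4, ZXD 1, ZXD 2 or ZXD 4, while the ZXD call held in all 24 alternatives.

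Psme1 had 105, 99.9, 208, 154 and 249.7 CPM in ZXD, 147, 181, 143, 100.5 and 137 CPM in HFD, and 110.5, 84.7, 93.4, 84.0 and 87.6 CPM in CON. Every HFD library except HFD 4, and ZXD 3 to ZXD 5, exceeded the highest CON library. Psme1 rose by 0.83 on the log2 scale in ZXD versus CON (SE 0.23, edgeR adjusted p = 0.0153). In HFD versus CON its value of 0.62 (SE 0.23, edgeR adjusted p = 0.0668) did not pass. Summed over both genes, this activator ring had 244 ± 106 CPM in ZXD, 205 ± 50.1 CPM in HFD and 122 ± 14.9 CPM in CON (SD, n = 5 each). RefSeq names 3 pseudogenes each for Psme1 and Psme2 and 0 for Psmb10, so reads of the activator genes could have been shared with such copies.

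**Figure D2:**
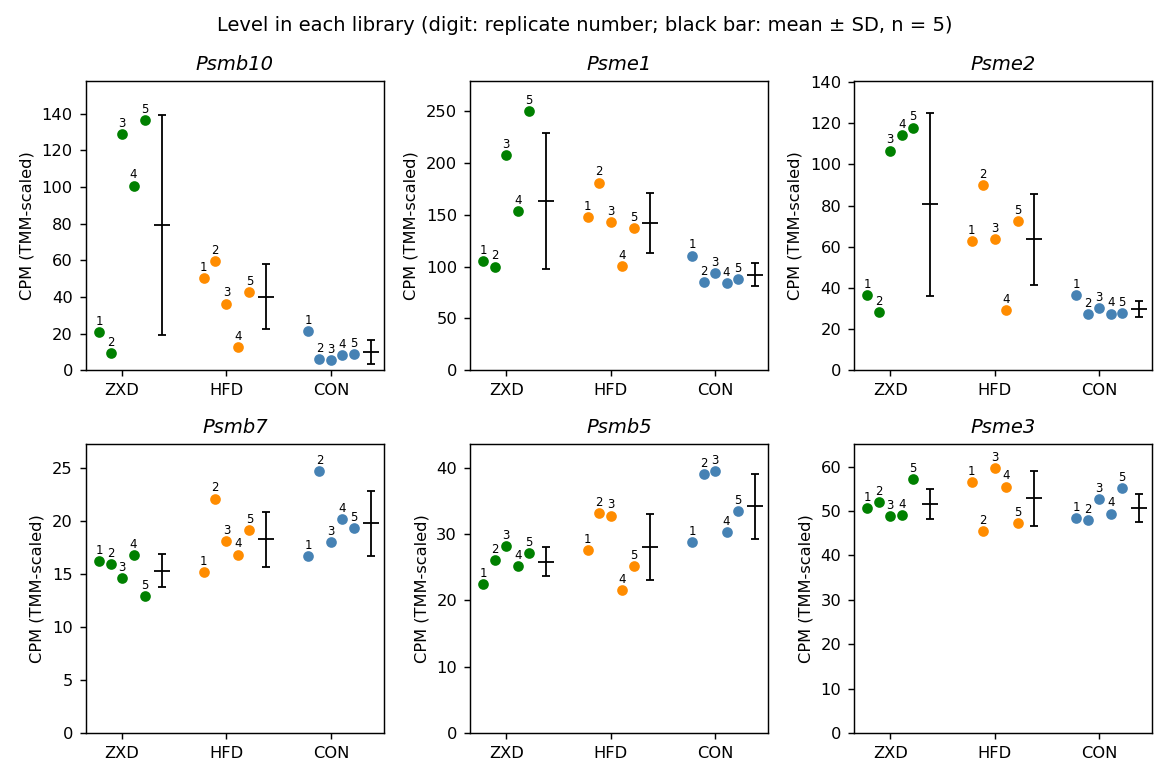
TMM-scaled CPM (y axis, linear, from 0) of Psmb10, Psme1, Psme2, Psmb7, Psmb5 and Psme3 in each library (points with the replicate number), by group (x axis, ZXD, HFD, CON), with the mean and SD as black bars. In the Psmb10 panel ZXD 3, ZXD 4 and ZXD 5 lie at 101 to 136 CPM, and ZXD 1, ZXD 2 and HFD 4 lie within the CON range of 5.32 to 21.2 CPM.

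The promoters of these genes are shown because Psmb10, Psme2 and Psme1 moved together and Psmb7, the constitutive counterpart of Psmb10, did not rise with them. They are RefSeq promoter windows of build GRCr8, 250 bases before to 50 bases after the start of each gene, written on the gene's strand. Capitals mark matches to a form of the interferon-stimulated response element, read as GAAA, any 2 bases and GAAA again, and searched on both strands. No match overlaps one of the antioxidant response element searched further on, and both motifs were chosen after values were seen. Psmb10 is at chr19:50743243-50743542 on the minus strand, Psme2 at chr15:33052702-33053001 on the minus strand, Psme1 at chr15:33038721-33039020 on the plus strand, and Psmb7 at chr3:42827421-42827720 on the minus strand.
Psmb10: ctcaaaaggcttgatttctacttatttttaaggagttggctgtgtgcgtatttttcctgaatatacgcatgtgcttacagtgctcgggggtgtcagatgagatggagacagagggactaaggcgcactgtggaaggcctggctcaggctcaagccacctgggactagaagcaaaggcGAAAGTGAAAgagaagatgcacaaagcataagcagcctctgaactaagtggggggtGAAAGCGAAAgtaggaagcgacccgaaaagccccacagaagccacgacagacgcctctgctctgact
Psme2: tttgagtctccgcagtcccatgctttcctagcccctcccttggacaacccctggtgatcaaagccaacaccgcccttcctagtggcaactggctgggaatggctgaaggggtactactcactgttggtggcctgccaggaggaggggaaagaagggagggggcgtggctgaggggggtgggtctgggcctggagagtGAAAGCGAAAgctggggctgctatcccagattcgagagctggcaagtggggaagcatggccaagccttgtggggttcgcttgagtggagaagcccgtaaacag
Psme1: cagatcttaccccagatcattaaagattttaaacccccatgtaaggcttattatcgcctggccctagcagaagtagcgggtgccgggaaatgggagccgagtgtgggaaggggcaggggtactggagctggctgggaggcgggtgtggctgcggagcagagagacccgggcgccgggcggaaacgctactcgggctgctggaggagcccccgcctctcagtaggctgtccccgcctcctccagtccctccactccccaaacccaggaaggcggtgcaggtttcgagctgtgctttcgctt
Psmb7: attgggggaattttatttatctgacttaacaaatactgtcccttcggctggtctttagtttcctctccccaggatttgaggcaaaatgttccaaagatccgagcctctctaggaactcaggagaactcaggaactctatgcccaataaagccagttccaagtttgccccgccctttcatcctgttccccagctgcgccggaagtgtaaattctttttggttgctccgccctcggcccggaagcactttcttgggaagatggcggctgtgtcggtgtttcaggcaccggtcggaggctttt
The Psmb10 window holds 2 matches, GAAAGTGAAA 73 bases and GAAAGCGAAA 17 bases before the start, and the Psme2 window holds 1, GAAAGCGAAA, 53 bases before it. No whole match lies in the Psme1 or Psmb7 window. The last letters of the Psme1 window, tttcgctt, could begin a match on the other strand, so whether one crosses its edge cannot be read here. Among the 37 members with a RefSeq promoter, 5 (13.5%) hold the motif, against 3.92% of all 33469 promoters. The other members with it are Psma4, Psmb3 and Psmd7, none of which was called. A match is a description of the letters in a window, and binding was not measured.

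The position of Psmb10 among interferon-regulated genes was read from 12 further genes of the interferon-gamma response. Of these, 8 rose in HFD versus CON and 12 in ZXD versus CON, with a median log2 fold change of 2.38 and 2.89, and 0 passed in ZXD versus HFD. The list sum was 480, 273, 4100, 3206 and 3038 CPM in the ZXD libraries, 1839, 1820, 894, 307 and 986 CPM in the HFD libraries, and 532, 217, 183, 317 and 217 CPM in the CON libraries. ZXD 2, ZXD 1 and HFD 4, the libraries lowest in Psmb10 within ZXD and HFD, were also lowest in this sum within their groups. CON 1 was the highest CON library in both. ZXD 5, the highest in Psmb10, lay below ZXD 3 and ZXD 4 in this sum.

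Markers of immune cells were also higher against CON. Of 18 macrophage markers, 14 rose in ZXD versus CON and 7 in HFD versus CON, and 0 fell. Markers of resident macrophages had no common sign in HFD versus CON. Vsig4 and Cd163 had log2 fold changes of -1.09 and -0.69 that did not pass. Timd4 rose by 2.50 (edgeR adjusted p = 0.00423), while Marco at 0.90 and Clec4f at -0.07 did not pass. The summed level was 1909, 999.5, 5472, 6697 and 2759 CPM in the ZXD libraries, 1301, 3955, 1813, 697 and 3030 CPM in the HFD libraries, and 969, 760, 407, 930 and 438 CPM in the CON libraries. As group means, Cd74 alone made up 1451 of 3567 CPM in ZXD, 1035 of 2159 CPM in HFD and 99.97 of 701 CPM in CON. Lyz2 had 621 ± 773 CPM in ZXD (SD, n = 5). The order of libraries in this sum therefore leans on few genes and cannot be read as an order of macrophage content. ZXD 1 and ZXD 2 were the lowest ZXD libraries and HFD 4 the lowest HFD library, as for Psmb10. CON 1 was the highest CON library in both. ZXD 5, the highest in Psmb10, lay below ZXD 3 and ZXD 4, as in the interferon-gamma sum. HFD 1, second among HFD libraries in Psmb10, was lower in this sum than every HFD library but HFD 4.

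Of 15 T and NK cell markers, 13 were tested, and 13 rose in ZXD versus CON and 9 in HFD versus CON. The summed level was 80.9, 41.5, 147, 187 and 83.9 CPM in the ZXD libraries, 54.8, 110.5, 51.4, 30.2 and 101 CPM in the HFD libraries, and 37.0, 30.2, 15.7, 37.6 and 14.4 CPM in the CON libraries. As group means, Cd4 alone made up 43.7 of 108 CPM in ZXD, 29.0 of 69.6 CPM in HFD and 17.7 of 27.0 CPM in CON. The order of libraries in this sum therefore leans on Cd4 and cannot be read as an order of T and NK cell content. ZXD 1 and ZXD 2 were the lowest ZXD libraries in this sum and HFD 4 the lowest HFD library, as for Psmb10. ZXD 5, the library with the most Psmb10, was close to ZXD 1 in this sum. CON 4 lay just above CON 1, the CON library with the most Psmb10. Gzmb, a defining cytotoxic marker, was at 0 in every library. The part of these cells in the levels of Psmb10, Psme1 and Psme2 was not tested.

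Psmb10 over Psmb7 was also taken as a ratio of counts within each library, which does not depend on scaling between libraries. The linear ratio was 1.28, 0.595, 8.82, 6.0 and 10.6 in ZXD, 3.29, 2.70, 2.01, 0.745 and 2.21 in HFD, and 1.27, 0.253, 0.295, 0.417 and 0.463 in CON. Psmb10 counts exceeded Psmb7 counts in 4 of 5 ZXD libraries, 4 of 5 HFD libraries and 1 of 5 CON libraries. The mean log2 ratio was 1.75 ± 1.84 in ZXD, 0.98 ± 0.83 in HFD and -1.16 ± 0.91 in CON (SD, n = 5 each).

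A two-sided exact permutation test gave p = 0.0159 for the log2 difference of 2.90 in ZXD versus CON and p = 0.0159 for the 2.13 in HFD versus CON, where the smallest p possible is 0.00794. Adjusted over 9 ratio tests, both exact p-values became 0.0595, so neither passed. In ZXD versus HFD the log2 difference was 0.77 (exact permutation p = 0.397, adjusted p = 0.446). Groups overlapped in each comparison.

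The other inducible catalytic subunits, which are not members by the rule, are given beside Psmb10. Psmb9 rose by 3.07 on the log2 scale in ZXD versus CON (SE 0.79, edgeR adjusted p = 0.0103) and by 2.53 in HFD versus CON (SE 0.78, edgeR adjusted p = 0.0339). Psmb8 rose by 2.01 in ZXD versus CON (SE 0.59, edgeR adjusted p = 0.0182), and its 1.17 in HFD versus CON (SE 0.57, edgeR adjusted p = 0.153) did not pass. The log2 ratio of Psmb9 over Psmb6 differed by 2.67 in ZXD versus CON and by 2.09 in HFD versus CON, and that of Psmb8 over Psmb5 by 2.05 and 1.38. Each of these 4 also had an exact permutation p adjusted over the 9 tests of 0.0595.

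**Figure D3:**
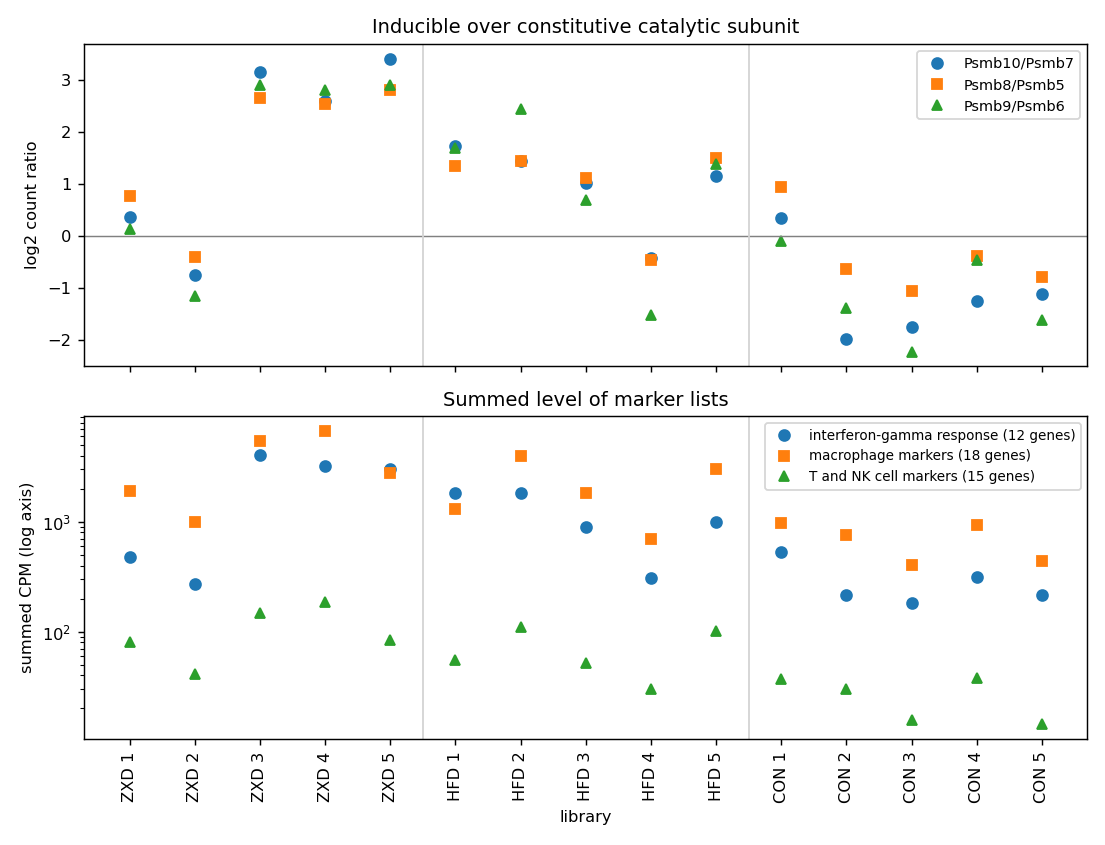
Log2 count ratios of Psmb10 over Psmb7, Psmb8 over Psmb5 and Psmb9 over Psmb6, and summed CPM of the interferon-gamma, macrophage and T and NK cell lists, per library (x axis, ZXD then HFD then CON); the list sums are on a log axis. ZXD 3, ZXD 4 and ZXD 5 are highest in the Psmb10 over Psmb7 ratio, at 6.0 to 10.6 on the linear scale, and HFD 4 is the lowest HFD library in every panel.

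Of the 3 constitutive catalytic subunits, Psmb5 and Psmb7 fell in ZXD versus CON, and none passed in HFD versus CON or ZXD versus HFD. Psmb7, the trypsin-like subunit that Psmb10 replaces, had 16.2, 16.0, 14.6, 16.8 and 12.9 CPM in ZXD, 15.2, 22.1, 18.1, 16.8 and 19.2 CPM in HFD, and 16.7, 24.7, 18.1, 20.2 and 19.3 CPM in CON. The ZXD libraries lie below 4 of the 5 CON libraries and reach the lowest one, so these groups overlap. Psmb7 fell by 0.37 on the log2 scale in ZXD versus CON (SE 0.13, edgeR adjusted p = 0.0432), and its log2 fold change of -0.11 in HFD versus CON (SE 0.13, edgeR adjusted p = 0.554) did not pass.

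Psmb5, the chymotrypsin-like subunit, had 22.5, 26.1, 28.2, 25.1 and 27.2 CPM in ZXD, 27.6, 33.2, 32.8, 21.5 and 25.2 CPM in HFD, and 28.8, 39.1, 39.5, 30.3 and 33.5 CPM in CON. Every ZXD library lay below every CON library. Psmb5 fell by 0.41 on the log2 scale in ZXD versus CON (SE 0.13, edgeR adjusted p = 0.0311), while the -0.29 in HFD versus CON (SE 0.13, edgeR adjusted p = 0.132) did not pass. The direction of both Psmb5 and Psmb7 in ZXD versus CON turns on the scale: with library totals their log2 fold changes were 0.022 and 0.062, and neither was called. Both calls were also lost without CON 2, CON 3, CON 5, ZXD 1 or ZXD 4, and that of Psmb7 without CON 4, ZXD 3 or ZXD 5 as well.

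Psmb6, the caspase-like subunit, had 16.6, 20.5, 20.3, 17.9 and 20.9 CPM in ZXD, 22.1, 24.5, 27.8, 20.5 and 22.9 CPM in HFD, and 21.3, 21.9, 26.2, 17.6 and 24.2 CPM in CON. The 3 groups overlap, with ZXD lowest on average. Its log2 fold change was -0.21 in ZXD versus CON (edgeR adjusted p = 0.208) and -0.29 in ZXD versus HFD (95% interval -0.56 to -0.02, edgeR adjusted p = 0.261), and neither passed.

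Among the non-catalytic beta subunits, Psmb2 was higher in ZXD. It had 59.3, 68.8, 78.7, 61.0 and 68.6 CPM in ZXD, 64.2, 72.4, 61.2, 55.1 and 61.8 CPM in HFD, and 56.0, 46.2, 55.9, 61.2 and 45.7 CPM in CON. It is named because it was called, and was chosen after its values were seen. ZXD 1 and ZXD 4 lie below the highest CON library. Psmb2 rose by 0.34 on the log2 scale in ZXD versus CON (SE 0.11, edgeR adjusted p = 0.0315), a call lost without CON 2, CON 3, CON 5, ZXD 2, ZXD 3 or ZXD 5. The beta subunit with the highest length-scaled level, Psmb1, had 62.1, 58.1, 73.7, 61.8 and 68.8 CPM in ZXD, 64.0, 83.8, 70.5, 58.2 and 62.2 CPM in HFD, and 63.8, 82.3, 72.0, 59.6 and 77.0 CPM in CON, and these ranges overlap throughout. Summed over Psmb1 to Psmb7, the beta ring had 303 ± 20.5 CPM in ZXD, 322 ± 39.5 CPM in HFD and 310 ± 15.3 CPM in CON (SD, n = 5 each).

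In the alpha ring, which gates the barrel, all 7 tested genes had a log2 fold change above 0 in ZXD versus CON and in HFD versus CON, with a median of 0.28 in ZXD and 0.22 in HFD. Of these, 1 was called in HFD versus CON and 0 in ZXD versus CON. The gene called was Psma6, with 76.3, 74.7, 105, 81.8 and 94.0 CPM in ZXD, 85.4, 115, 103, 70.8 and 91.9 CPM in HFD, and 53.0, 81.7, 77.5, 62.6 and 60.3 CPM in CON. HFD 4 lay below CON 2 and CON 3, so the groups overlap. Psma6 rose by 0.48 on the log2 scale in HFD versus CON (SE 0.15, edgeR adjusted p = 0.0411), and the 0.37 in ZXD versus CON (edgeR adjusted p = 0.0807) did not pass. Leaving out CON 1, CON 4, CON 5, HFD 2, HFD 3, HFD 5 or ZXD 5 ended the HFD call. RefSeq names 5 pseudogenes of Psma6, so its reads could be shared.

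The alpha ring's lowest tested gene per length, Psma5, had 29.9, 31.7, 44.2, 37.2 and 39.1 CPM in ZXD, 37.9, 43.8, 36.3, 27.3 and 29.8 CPM in HFD, and 30.8, 25.9, 30.5, 26.2 and 29.0 CPM in CON. Its higher libraries were ZXD 3 to ZXD 5 and HFD 1 to HFD 3, and the groups overlap. The sum of Psma1 to Psma7 was 407, 430, 607, 504 and 564 CPM in the ZXD libraries, 476, 591, 530, 393 and 456 CPM in the HFD libraries, and 392, 441, 451, 417 and 411 CPM in the CON libraries. ZXD 1, ZXD 2 and HFD 4, which were lowest in Psmb10, were also lowest in this sum within their groups. CON 1 went the other way, as the highest CON library in Psmb10 and the lowest in this sum. Psma8, an alpha subunit known from testis, stayed untested, with at most 9 counts in ZXD, 5 in HFD and 3 in CON. Psmb11, the beta subunit of thymic epithelium, had 1 count in ZXD 5, 1 in HFD 4 and 0 in CON. A limit of 3 counts corresponds to 0.183 to 0.285 CPM in these libraries, covering counting error alone.

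In the base, the 6 ATPases that unfold substrates did not pass the test in any comparison. Their sum was 415 ± 31.8 CPM in ZXD, 417 ± 34.5 CPM in HFD and 426 ± 19.5 CPM in CON (SD, n = 5 each). Psmc3, the highest per length, had 110.4, 123, 121, 102 and 117 CPM in ZXD, 107, 137, 131, 119.6 and 107 CPM in HFD, and 111, 119, 115, 129.6 and 126 CPM in CON. Psmc6, the lowest, had 64.5, 63.1, 54.2, 48.8 and 60.4 CPM in ZXD, 61.3, 45.2, 51.0, 59.8 and 40.9 CPM in HFD, and 73.2, 60.3, 59.2, 81.0 and 56.4 CPM in CON. Both overlap between groups, and the log2 fold change of Psmc6 in HFD versus CON was -0.35 (SE 0.14, edgeR adjusted p = 0.0806).

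The other base subunits include Psmd1 and Psmd2, large scaffold subunits that bind substrate carriers, and Psmd4, a ubiquitin receptor. Psmd1 had 127, 176, 139.6, 121 and 155 CPM in ZXD, 132, 121, 108, 121 and 99.9 CPM in HFD, and 131, 126, 123, 148 and 101 CPM in CON. Psmd2 had 103, 121, 122, 119.7 and 129.5 CPM in ZXD, 112, 121, 101, 98.1 and 90.0 CPM in HFD, and 113, 104, 103, 129 and 116 CPM in CON. The highest value of Psmd1 and of Psmd2 was in a ZXD library, and the groups overlap. In ZXD versus HFD the log2 fold change of Psmd1 was 0.30 (95% interval 0.02 to 0.59, edgeR adjusted p = 0.269). Psmd1 and Psmb6 were the 2 members with an unadjusted p under 0.05 in that comparison, against 16.5% of all tested genes. Of the 3 genes, 0 passed in any comparison.

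In the lid, 1 of 8 genes passed, in ZXD versus CON. This was Psmd14, the metalloprotease that cuts ubiquitin chains off substrates, with 19.6, 22.0, 26.7, 24.8 and 21.7 CPM in ZXD, 19.6, 23.7, 23.1, 17.7 and 18.6 CPM in HFD, and 17.4, 19.4, 19.5, 15.9 and 17.8 CPM in CON. Every ZXD library lay above every CON library, by a small margin for ZXD 1. Psmd14 rose by 0.35 on the log2 scale in ZXD versus CON (SE 0.12, edgeR adjusted p = 0.0343), a call lost without CON 1, CON 4, CON 5, ZXD 3 or ZXD 4. The highest lid gene per length, Psmd7, had 75.9, 81.5, 87.8, 64.3 and 84.2 CPM in ZXD, 82.1, 98.1, 108, 78.7 and 87.1 CPM in HFD, and 80.2, 112, 114, 88.0 and 94.9 CPM in CON. Its groups overlap. The lid sum was 488 ± 30.4 CPM in ZXD, 518 ± 53.9 CPM in HFD and 525 ± 42.4 CPM in CON (SD, n = 5 each).

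Of the chaperones that assemble the base, Psmd5 had the most negative log2 fold change of any tested member in ZXD versus CON. It had 32.7, 37.9, 24.5, 22.3 and 32.7 CPM in ZXD, 43.8, 33.4, 31.3, 40.8 and 25.4 CPM in HFD, and 46.3, 42.7, 47.8, 47.4 and 46.8 CPM in CON. Every ZXD library lay below every CON library, and the CON libraries were close together. Psmd5 fell by 0.62 on the log2 scale in ZXD versus CON (SE 0.16, edgeR adjusted p = 0.00975), and this held in all 15 fits without 1 library. With library totals as the scale the value was -0.21 and the call was lost (edgeR adjusted p = 0.218). In HFD versus CON the value of -0.40 (SE 0.16, edgeR adjusted p = 0.0816) did not pass.

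Psmd10, another base chaperone, also known as the oncoprotein gankyrin, had 7.02, 7.72, 10.3, 10.6 and 8.99 CPM in ZXD, 10.9, 12.1, 8.79, 8.25 and 9.83 CPM in HFD, and 6.91, 7.58, 7.98, 6.65 and 8.86 CPM in CON. Its log2 fold change in HFD versus CON was 0.39 (edgeR adjusted p = 0.0873), that of the third chaperone, Psmd9, was 0.47 (edgeR adjusted p = 0.0791), and neither passed. The 3 chaperones thus had no common sign: Psmd5 was negative and the others positive in both comparisons with CON.

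The activators outside the inducible ring did not pass in any comparison. Psme3, a nuclear activator related to them, had 50.7, 51.9, 48.8, 49.1 and 57.2 CPM in ZXD, 56.5, 45.4, 59.6, 55.5 and 47.3 CPM in HFD, and 48.4, 48.0, 52.6, 49.4 and 55.2 CPM in CON. Its log2 fold change was 0.02 in ZXD versus CON (95% interval -0.18 to 0.23) and 0.06 in HFD versus CON (95% interval -0.15 to 0.27), and its groups overlap. Psme4, a large single-chain activator, had 220.4, 246, 168, 112 and 150.3 CPM in ZXD, 260.4, 179.9, 133, 157 and 240.3 CPM in HFD, and 311, 245, 209, 266 and 214 CPM in CON. Its lowest values lie in ZXD 4 and HFD 3, and the groups overlap. The log2 fold change of Psme4 was -0.47 in ZXD versus CON (SE 0.23, edgeR adjusted p = 0.119) and -0.36 in HFD versus CON (SE 0.22, edgeR adjusted p = 0.261), and neither passed.

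Spread within a group was described by the coefficient of variation. Over 5 libraries it had a median of 10.8% in ZXD, 13.3% in HFD and 9.36% in CON over the 31 constitutive subunits. For Psmb10, Psme1 and Psme2 it lay between 39.9% and 75.9% in ZXD, 20.3% and 44.2% in HFD, and 11.9% and 64.0% in CON. The highest of these, in ZXD, was that of Psmb10.

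Levels are compared between genes per length, in CPM per kilobase of gene length, and the order within a role depended on the group. Averaged over 15 libraries, Psma6 at 85.4 and Psma7 at 80.0 led the alpha ring and Psma5 at 32.7 was its lowest tested gene, although in CON Psma7 at 70.9 ± 5.77 lay just above Psma6 at 69.6 ± 12.6, within their spread (SD, n = 5). The first place among beta genes was held by Psmb2 at 85.0 ± 9.72 in ZXD, Psmb4 at 85.4 ± 11.99 in HFD and Psmb1 at 88.8 ± 11.7 in CON, and Psmb1, Psmb2 and Psmb4 lay within their spread of each other in ZXD and HFD. Psmb7, averaging 21.0, was the lowest tested beta gene in ZXD and HFD. Over all libraries, Psmc3 at 72.8 and Psmc6 at 24.9 bounded the ATPases, and Psmd7 at 56.1 and Psmd14 at 13.8 the lid. Psme1 was the highest of all members, at 163 ± 65.1 in ZXD, 142 ± 28.7 in HFD and 92.0 ± 10.95 in CON, and Psme3 was the lowest activator, at 19.7 ± 1.30, 20.2 ± 2.36 and 19.4 ± 1.19 in the same groups.

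**Figure D4:**
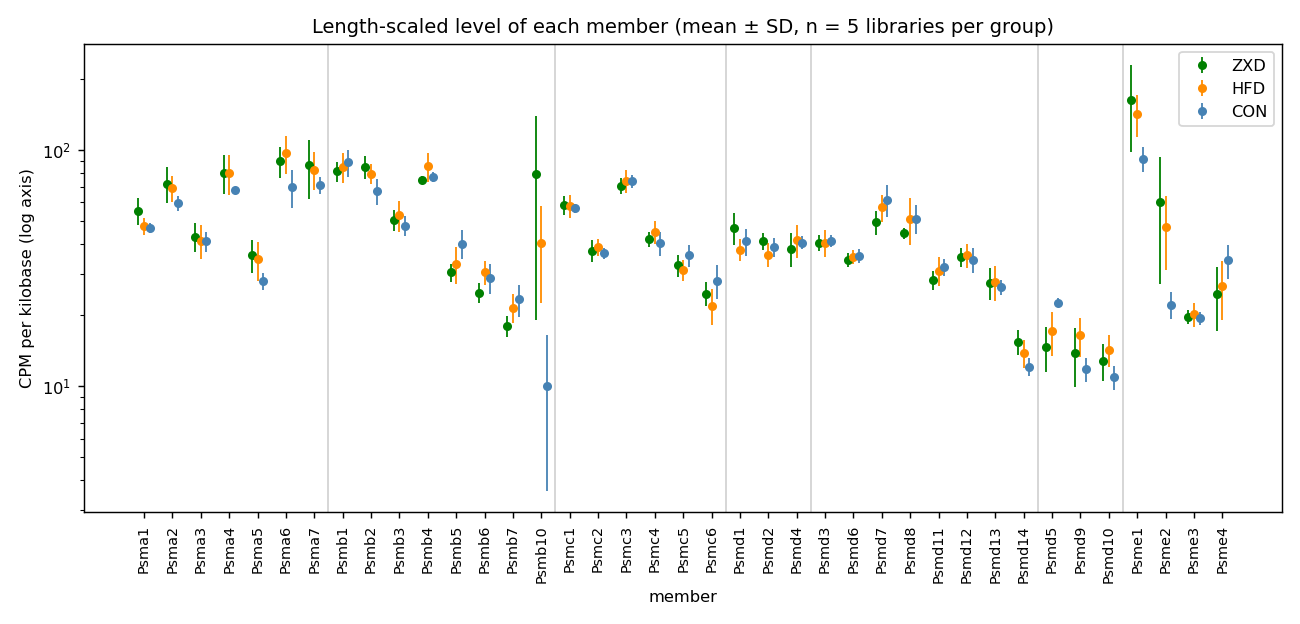
Length-scaled level (CPM per kilobase, log axis) of each tested member except Psmc3ip, grouped by role. Points are group means for ZXD, HFD and CON with SD bars. Group means of constitutive subunits lie close together, and Psmb10 has 79.3, 40.3 and 10.0 CPM per kilobase in ZXD, HFD and CON.

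Among the beta genes per length, Psmb10 was the third highest in ZXD and the lowest tested in CON. In ZXD, Psmb10 at 79.3 ± 60.2 CPM per kilobase lay between Psmb1 at 81.2 ± 7.82 and Psmb4 at 74.9 ± 2.90 and did not differ from either beyond its spread. In CON, Psmb10 at 10.0 ± 6.42 CPM per kilobase lay under Psmb7 at 23.3 ± 3.59 (SD, n = 5).

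Other genes of the pathway were counted from lists. Of 11 tested assembly factors and associated proteins, 2 rose in HFD versus CON and 0 fell. These list counts, over 8 to 17 genes, stand beside the shares of all tested genes, 10.0% higher and 10.9% lower in HFD versus CON and 17.9% and 14.8% in ZXD versus CON, and nothing particular to a list is read from them. The 2 assembly or associated genes that rose were Psmg4, a chaperone of alpha-ring assembly, higher by a log2 value of 0.86 (SE 0.19, edgeR adjusted p = 0.00724), and Adrm1, a ubiquitin receptor of the base, with 0.32 (SE 0.10, edgeR adjusted p = 0.0413). In ZXD versus CON, Psmg4 rose by 0.72 (edgeR adjusted p = 0.0121) and Psmg1, another alpha-ring chaperone, fell by 0.56 on the log2 scale (edgeR adjusted p = 0.0124). Of 17 genes that supply or deliver ubiquitin, 1 rose and 3 fell in HFD versus CON and 0 passed in ZXD versus CON. All 4 are cofactors of Vcp, the segregase that pulls tagged proteins apart, and they went both ways. Nsfl1c rose by 0.41 on the log2 scale (edgeR adjusted p = 0.00769), while Ufd1l fell by 0.25, Nploc4 by 0.47 and Faf1 by 0.50. Vcp itself had a log2 fold change of -0.16 (edgeR adjusted p = 0.389), which did not pass.

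NFE2L1 is the transcription factor known to raise proteasome genes when proteolysis falls short. Of 8 genes of its activation list, 2 rose in HFD versus CON and 2 rose and 1 fell in ZXD versus CON. Nfe2l2, a related factor of the oxidative stress response, rose by 0.62 in HFD versus CON (SE 0.11, edgeR adjusted p = 0.00143) and by 0.40 in ZXD versus CON. Mafk, a partner of both factors, rose by 1.09 in HFD versus CON and by 0.90 in ZXD versus CON. Mafg, a partner of the same family, fell by 0.56 on the log2 scale in ZXD versus CON (edgeR adjusted p = 0.02). Nfe2l1 itself had 0.20 in HFD versus CON and 0.19 in ZXD versus CON and did not pass. The antioxidant response element TGACNNNGC, to which these factors bind, lies on either strand in the promoter of 8 of 37 members (21.6%), against 12.1% of all promoters; these are Psma3, Psmb2, Psmb5, Psmb6, Psmd1, Psmd3, Psmd9 and Psme4, of which Psmb2 rose and Psmb5 fell in ZXD versus CON.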

How the data were processed

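RNA of 15 rat liver libraries in 3 groups of 5 was analysed. The authors deposited 1 table of whole-number counts and FPKM values per gene and library, per the file headers. The deposited FPKM equalled the count divided by gene length and library total (100% of values above 0 matched), so tests used the counts. EdgeR is named in the submitters' processing notes without a role. Not given in the sources used here are aligner, counter, strand, build and annotation. RefSeq GRCr8 tables gave names and promoters only, and no coordinates come from the deposited table.

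Genes were filtered with filterByExpr (minimum count 10, minimum total 15), scaled with TMM and fitted with edgeR 4.0.16 in R 4.3.3 (robust estimateDisp, glmQLFit, glmQLFTest; group as sole term, 12 residual degrees of freedom). Log2 CPM values with a prior count of 2 were used only to correlate libraries of the same number. Fold changes came from the fit without that prior count, and the count ratios given above carry none. Ratio tests are two-sided exact permutation tests. DESeq2 1.42.0 and limma 3.58.1 were alternatives. The fit was tested on simulated data. Kept genes held at least 99.833% of counts, and no pair of libraries agreed within sampling noise (lowest chi-square per degree of freedom 19.5).

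The members, gene lists and tests were chosen with earlier results of these data known. Every member is accounted for by role; values per library are given for catalytic subunits, activators, called members and the highest and lowest member per length in each role. Psmb8 and Psmb9 are given beside Psmb10 alone. The simvastatin-treated rats of the labels were not analysed here. Of the 42 members, 18 have a pseudogene named in RefSeq, whose reads could be shared.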

Additional observations from a re-analysis of the deposited data

Results flagged for a closer look

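Of 120 groups of 5 libraries, 2 held a library far from the others by Dixon's criterion (gap over range above 0.71); chance flags about 1 in 20 groups. Psmb10 had 21.2 CPM in CON 1, against 5.32 to 8.94 CPM in the other CON libraries (gap over range 0.772). Psmd8, a lid subunit, had 57.9 CPM in CON 1, against 78.5 to 86.3 CPM in the other CON libraries (gap over range 0.727).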

How the results depend on the processing

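In ZXD versus HFD, 0 members were called under every alternative run. In HFD versus CON, where 3 members were higher, the count was 33 with library totals as the scale, 1 with limma voom, 0 without a filter on low counts, 5 with only the compared groups fitted and 0 without HFD 2 and HFD 5 together; leaving out 1 library gave 0 to 4 higher and 0 to 1 lower, the 1 lower being Psmd5 without HFD 1. The count was 0 without CON 4, CON 5, HFD 2 or HFD 3, 1 without any one of CON 1, CON 2, CON 3, HFD 1, HFD 5, and 4 without HFD 4 or ZXD 2. In ZXD versus CON, with 5 higher and 3 lower, library totals gave 28 and 0, and leaving out 1 library gave 3 to 7 higher (3 without CON 5 or ZXD 3) and 1 to 4 lower (1 without CON 2, CON 3, CON 5, ZXD 1 or ZXD 4). The members' median with library totals was 0.48 in HFD versus CON and 0.47 in ZXD versus CON. Psmb10, Psme1 and Psme2 were called in ZXD versus CON under all 24 alternatives.

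The labels give no reason to pair libraries of the same number. Deviations of same-numbered libraries correlated at 0.244, 0.215, 0.260, -0.00057 and -0.078 in HFD versus CON. The lowest correlation was -0.547, in ZXD versus HFD. Libraries of different numbers were not correlated for reference, so no link by number is read from these values. With the replicate block, 1 member was higher in HFD versus CON: Psmb10 (edgeR adjusted p = 0.085) and Psme2 (0.102) were no longer called, nor was Psmb2 in ZXD versus CON (0.0653). The ratio differences do not change with the block, and its smallest exact permutation p of 0.0625 cannot pass.

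Leaving out 1 library, the log2 ratio difference was 1.92 to 2.51 for Psmb10 over Psmb7, 1.21 to 1.74 for Psmb8 over Psmb5 and 1.72 to 2.71 for Psmb9 over Psmb6 in HFD versus CON, all passing without HFD 4. In ZXD versus CON it was 2.49 to 3.53 for Psmb10 over Psmb7 and 2.33 to 3.34 for Psmb9 over Psmb6, passing without ZXD 2, and in ZXD versus HFD -0.0375 to 1.24 for Psmb9 over Psmb6.

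Single genes changed sign as follows; the cause was not tested. With library totals in HFD versus CON, the log2 fold change became 0.35 for Psmb1, 0.13 for Psmb5, 0.31 for Psmb7, 0.069 for Psmc6, 0.31 for Psmd1, 0.31 for Psmd2, 0.0165 for Psmd5, 0.31 for Psmd7 and 0.072 for Psme4. In ZXD versus CON it became 0.30 for Psmb1, 0.022 for Psmb5, 0.21 for Psmb6, 0.062 for Psmb7, 0.36 for Psmc3, 0.24 for Psmc6 and 0.11 for Psmd7. Psmc3 in HFD versus CON was -0.0024 without a filter, -0.0022 with the replicate block and -0.0096 without HFD 2 and HFD 5, where Psmb1 in ZXD versus HFD was 0.012. Leaving out 1 library, HFD versus CON ranged from -0.16 to 0.0101 for Psmb1 and -0.0475 to 0.0519 for Psmc3, ZXD versus CON from -0.018 to 0.0524 for Psme3, and ZXD versus HFD from -0.0224 to 0.15 for Psma5, -0.11 to 0.0256 for Psmb1, -0.0013 to 0.33 for Psme1, -0.0869 to 0.0102 for Psme3 and -0.29 to 0.0141 for Psme4.

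Over all tested genes, HFD versus CON had 1322 higher and 1436 lower, against 5390 and 505 with library totals, 436 and 607 without HFD 2 and HFD 5, 793 higher with limma voom, 792 higher with the replicate block, and 754 to 1630 higher and 925 to 1645 lower without 1 library. ZXD versus CON had 2356 and 1943, against 6046 and 628 with library totals and 1531 higher with limma voom. ZXD versus HFD had 0 and 0, against 212 and 130 with DESeq2. With 5 libraries of 12552449 to 14228052 counts a group, small differences are not detectable.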
